A study of Caenorhabditis elegans with 2 samples.

Results

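The 72 protein-coding genes of Caenorhabditis elegans whose symbol in Ensembl is his- followed by a number were described by the peaks of CEBP-2 that lie on them, among 19985 protein-coding genes in all. CEBP-2 belongs to the C/EBP family of DNA-binding proteins, which pair through a leucine zipper. Its sites were taken from ChIP-seq, the sequencing of DNA precipitated with a protein, here with an antibody against green fluorescent protein in whole young adults, 64 h old, from cultures synchronised by bleaching and starvation of L1 larvae. Both samples, biological replicates 1 and 2, belong to the same group and share the strain, age and treatment given here. The strain was OP331, with the array wgIs331, in which C48E7.11, the cebp-2 gene, is fused to TY1, EGFP and 3xFLAG, together with unc-119(+) in an unc-119(ed3) background. The precipitated protein was therefore made from a transgene, and whole animals were pooled, so the cells in which a site was bound cannot be told apart. A control experiment is named in the labels and was not used here. Whether the authors' values take it into account is not known here. There is no second group for a test.

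Histones are the proteins that DNA is wrapped around. H2A, H2B, H3 and H4 form the nucleosome core and the linker histone H1 binds outside it. Genes for the core histones that are made during DNA replication are short, lack introns in most animals, lie in clusters in near-identical copies and often stand head to head, so that an H2A gene shares the space before it with an H2B gene and an H3 gene with an H4 gene. Their messages end in a stem-loop in place of a poly(A) tail, and in C. elegans the stem-loop binding protein is made by cdl-1. Variant histones such as H3.3 are made outside replication, from genes that have introns more often.

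By the product names of RefSeq the 72 genes comprised 17 of H2A, 16 of H2B, 15 of H3, 16 of H4 and 5 of H3.3. The product of his-24 is named Histone 24, and the gene was counted here as linker H1. In 2 short genes, his-39 and his-73, the product is named only by a histone domain. The 72 genes lay on 6 chromosomes in 19 clusters, counting as a cluster histone genes within 5000 bp of each other. Of these clusters 5 held a lone gene and the largest, on chromosome II, held 13 genes. An intron was annotated in 8 genes. Ensembl gives several copies the same symbol, so that 72 genes have 50 distinct symbols. The names used here are those that RefSeq gives to the same gene identifiers, which differ from the Ensembl symbol for 22 genes. The coordinates of all 72 genes were the same in both annotations.

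A peak was assigned to a gene if it overlapped the gene by at least 1 bp or had its summit within 1000 bp upstream of the 5' end. The main list holds the 1419 peaks that the authors kept for both replicates at their threshold of irreproducible discovery rate (IDR), which is low where the rank of a peak recurs between data sets. The ranked list behind it holds 112494 peaks. The signal value of a peak is that of the authors' caller, its unit is not stated, and it is used here within a list only. The files give no reads, and the depth of the samples is unknown.

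A peak of the main list lay at 12 of the 72 histone genes, or 16.7% (Wilson 95% interval 9.80 to 26.9%, for the counting of genes only), where 5.62% of all protein-coding genes had one. Among 633 other genes without an intron the share was 2.05%. Among 64 ribosomal protein genes it was 25%, with 16 genes. The 12 histone genes were reached by 8 peaks, because 6 of the peaks served both genes of a head-to-head pair, so the genes are not independent of each other. None of the 8 peaks was also assigned to a protein-coding gene that is not a histone gene. Counting only genes that a peak overlaps leaves 8 genes, and the other 4 were reached through the upstream window alone. The 8 peaks fell in 5 of the 19 clusters and on 4 chromosomes, with 5 peaks and 8 genes on chromosome IV, which carries 22 of the histone genes.

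The highest peak lay at his-37, an H4 gene with an intron, at chrV:9546895-9547164. Its signal value was 112.9 in the ranked list, with the top score of 1000, and its summit lay 75 bp before the 5' end of his-37. Replicate 1 had a signal value of 58.5 there and replicate 2 had 52.1, each the highest at a histone gene in its own ranked list. The peak was in the own thresholded list of replicate 1 and not in that of replicate 2. The part of the peak that lies before the transcript is shown because it holds this summit and, in capitals, a TATAAA sequence (chrV:9546895-9547104, plus strand).
his-37: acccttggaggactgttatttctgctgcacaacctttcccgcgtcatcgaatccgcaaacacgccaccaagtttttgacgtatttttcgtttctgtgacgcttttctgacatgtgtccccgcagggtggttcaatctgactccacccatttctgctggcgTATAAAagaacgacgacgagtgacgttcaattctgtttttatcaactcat

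His-72, an H3.3 gene with introns on chromosome III, had the peak chrIII:12368908-12369177. Its signal value was 65.5 and its score 895, with 38.4 in replicate 1 and 32.1 in replicate 2. The summit lay 7 bp inside the 5' end of the longer annotated transcript. The bases of the peak before that transcript are given on the strand of the gene (chrIII:12369051-12369177, minus strand) to show the second start-proximal peak, and they hold no TATAAA sequence.
his-72: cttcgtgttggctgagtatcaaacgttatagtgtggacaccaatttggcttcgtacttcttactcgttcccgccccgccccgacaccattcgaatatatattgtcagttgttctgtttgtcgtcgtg

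The other 6 main-list peaks had summits inside the coding sequence of a replication-type gene or just past its 3' end. The densest group lay on chromosome IV at the adjacent pairs his-61/his-62 (H2A and H2B) and his-60/his-59 (H4 and H3), where 3 peaks followed each other with summits 801 and 894 bp apart. The peak chrIV:7488363-7488632 had the highest signal value of the 3, 93.4, with its summit 249 bp into his-59, and values of 43.5 and 51.6 in replicates 1 and 2. The peak chrIV:7486668-7486937 had a signal value of 82.8, with its summit 258 bp into his-62, and values of 42.1 and 44.2 in the replicates. The peak chrIV:7487469-7487738 had a signal value of 81.2, with its summit 77 bp past the 3' end of his-60, and values of 35.9 and 47.2. All 3 had the top score of 1000.

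The cluster at the pairs his-66/his-65 (H2B and H2A) and his-63/his-64 (H3 and H4), also on chromosome IV, had a peak at each pair. At chrIV:11400195-11400464 the signal value was 91.2, with 37.2 in replicate 1 and 49.7 in replicate 2, and the summit lay 85 bp past the 3' end of his-66. At chrIV:11407401-11407670 the signal value was 69.8 and the score 859, with 30.1 and 37.1 in the replicates, and the summit lay 109 bp past the 3' end of his-64. The remaining peak, chrI:9988331-9988600, had a signal value of 72.3 and the top score, with 39.8 and 43.8 in the replicates. Its summit lay 297 bp into his-67, an H4 gene that stands head to head with the H2A gene his-68. In each of the 8 peaks both replicates had a peak of their own, and the summits of the 2 replicates were 1 to 59 bp apart, with a median of 27.5 bp.

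Of the 8 peaks, 6 were in the conservative list, all but those of his-72 and of his-64, and 6 had the top score. An own thresholded list of either replicate held 3 of the 8. These own lists hold 254 peaks for replicate 1 and 386 for replicate 2, beside 1419 in the main list and 1062 in the conservative list. The matching shares over all main-list peaks were not counted, so neither 6 of 8 nor 3 of 8 is read as high or low. The own list of replicate 1 held a peak at 3 histone genes, his-37, his-61 and his-62, where 1.13% of all protein-coding genes had one. The own list of replicate 2 held a peak at 2, his-59 and his-60, where 1.6% of all protein-coding genes had one. The 2 own lists thus had no histone gene in common. Their overlap over all protein-coding genes was not counted, so nothing particular of histone genes is read from this.

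**Figure D1:**
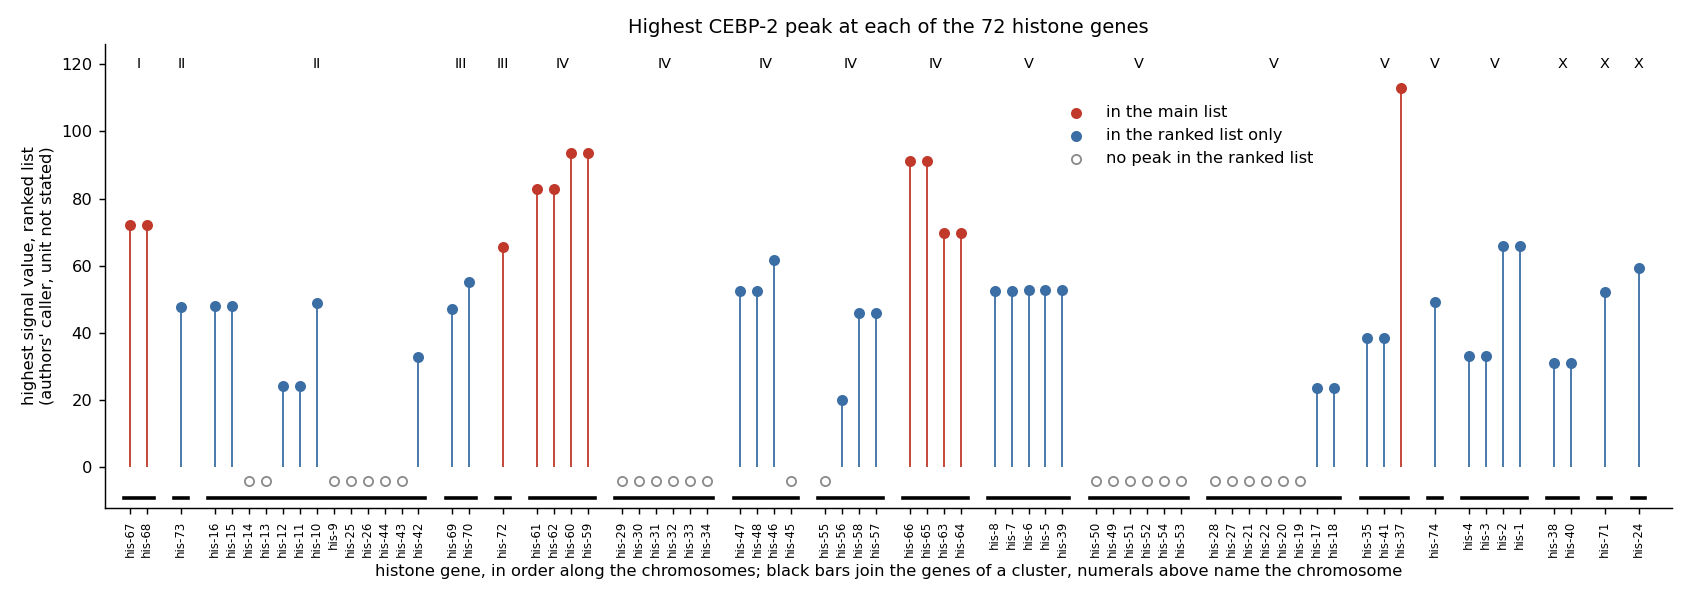
Highest signal value in the ranked list at each of the 72 histone genes in order along the chromosomes, with red points for genes with a main-list peak, blue for a ranked-list peak only, and open circles below 0 for genes without a peak. The 12 red genes stand in 5 clusters and reach 112.9 at his-37, and 2 clusters, on IV and V, have open circles only.

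In the ranked list, which includes weak peaks, 45 of the 72 histone genes had a peak, or 62.5%, where 87.4% of all protein-coding genes had one. Over the genes with a peak the median of the highest signal value was 52.4 for histone genes and 40.4 for all protein-coding genes. The genes with no main-list peak that came highest were his-2 and his-1, an H3 and H4 pair on chromosome V, with a signal value of 65.8 and a score of 706. Replicate 1 had 24.97 there and replicate 2 had 34.2. That signal value exceeds the 65.5 of his-72, which was in the main list with the higher score of 895.

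In the other clusters without a main-list peak the highest values were 61.8 at his-46 (H4, IV), 59.4 at his-24 (linker H1, X), 55.1 at his-70 (H3.3, III), 52.7 at his-6, shared with his-5 and his-39 (V), and 52.2 at his-71 (H3.3, X). Lower values were found at his-74 (H3.3, V) with 49.2, his-10 (H4, II) with 48.9 and his-73 (II) with 47.8. At his-58 (H2B, IV) the value was 45.9, shared with his-57. Values of 31.0 at his-38 (H4, X) and 23.7 at his-17 (H3, V) were shared with his-40 and his-18. The peaks of his-46, his-10 and his-58 reached these genes through the upstream window alone. Their summits lay 277 bp past the 3' end of his-45, 265 bp past that of his-9 and 584 bp into his-57. Replicate values at the highest genes of these clusters lay between 11.2 (his-71, replicate 1) and 39.8 (his-74, replicate 2). Neither own ranked list had a peak at his-17. At his-10 replicate 1 had a peak of 17.8 that overlapped the ranked-list peak, but its summit fell just outside the upstream window, so it was not assigned to the gene. Just outside the main list lay a second peak of his-37, at chrV:9547564-9547833, 92 bp past its 3' end. It had a signal value of 65.8 and a score of 830, the lowest score in the main list, and a value of 50.7 in replicate 2 but no peak in replicate 1. It was the only histone peak with a score that high outside the main list.

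By histone type, main-list peaks lay at 4 of 16 H4 genes, 3 of 17 H2A genes, 2 of 16 H2B genes, 2 of 15 H3 genes and 1 of 5 H3.3 genes, and at neither his-24 nor the 2 short genes. The 3 H2A genes, his-61, his-65 and his-68, and the H3 gene his-63 were reached through the upstream window alone. Their peaks had summits in the partner gene of the pair or just past its 3' end. All 5 H3.3 genes had a ranked-list peak, with highest values from 47.1 to 65.5, and 7 of 15 H3 genes had one, with values from 23.7 to 93.4. Since 87.4% of all protein-coding genes had a ranked-list peak, 5 of 5 is near that share and says nothing particular of H3.3. Over the gene alone, without the upstream window, the H3.3 genes were 96.7 to 100% unique in sequence. The median over the H3 genes was 1.11% by the same count of unique stretches, which is described below.

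There were 31 head-to-head pairs with 5' ends at most 1000 bp apart, which hold 62 of the genes. They comprised 16 pairs of H2A with H2B, 14 of H3 with H4 and the pair his-67/his-68. The space between the 2 genes was 227 to 368 bp long, with a median of 258 bp. A main-list peak was assigned to 5 pairs, and none of the summits of those peaks lay between the 2 genes. A ranked-list peak was assigned to 19 pairs. Summits lay between the genes in 10 pairs, with signal values from 7.69 to 52.4, and in a coding sequence or just past a 3' end in 17 pairs, with highest values from 19.8 to 93.4. In the 10 pairs with both, the value outside the shared space was the higher in 6 and the value between the genes in 4, with medians of 51.04 and 34.7. The value outside was the highest of 2 or 3 summits in each pair, and the value between came from 1 summit. The 2 are therefore not on equal terms, and no preference is read from them.

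Over all 74 ranked summits at histone genes, 24 lay in histone coding sequence (median signal value 33.8), 10 between a pair (34.7), 23 within 250 bp past a 3' end (32.1), 5 in introns or untranslated sequence (45.9) and 12 elsewhere in an upstream window (26.5). The last group includes summits in the window of 1 gene that lay beyond its partner. They lay 265, 277, 399 and 319 bp past the 3' ends of his-9, his-45, his-1 and his-40. Of the main-list summits among them, 3 lay in coding sequence, 3 past a 3' end, 1 in intron or untranslated sequence, 1 elsewhere upstream and none between a pair. In 6 of the 8 main-list peaks the summit was nearer to the 3' end than to the 5' end of a histone gene. The matching share over all 74 ranked summits was not counted, so no preference is read from this. Per kilobase there were 0.898 ranked summits in histone coding sequence and 1.20 in the shared spaces.

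**Figure D2:**
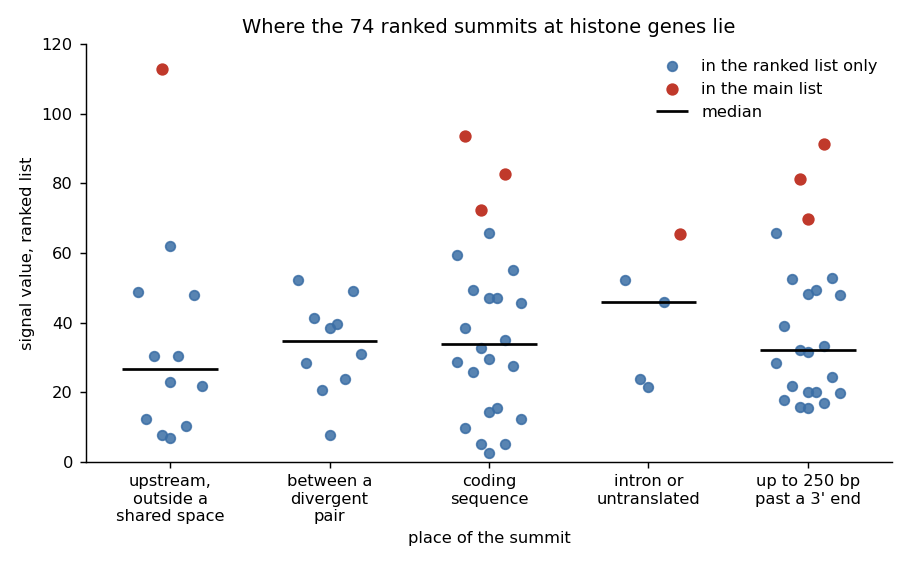
Signal value of the 74 ranked summits at histone genes by the place of the summit, with red points for main-list peaks, blue for the rest and black lines for medians. The 10 summits between a divergent pair reach 52.4 and none is in the main list. The group upstream, outside a shared space, includes summits more than 250 bp past the 3' end of a partner gene.

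The space between his-60 and his-59 is shown because main-list peaks flank it on both sides and its own summit had a signal value of only 39.6 (chrIV:7487993-7488248, plus strand). The space between his-8 and his-7 is shown because it had the highest summit of any shared space, 52.4 (chrV:8533087-8533378, plus strand), and capitals mark a TATAAA sequence on the minus strand. The former holds no TATAAA sequence.
his-60/his-59: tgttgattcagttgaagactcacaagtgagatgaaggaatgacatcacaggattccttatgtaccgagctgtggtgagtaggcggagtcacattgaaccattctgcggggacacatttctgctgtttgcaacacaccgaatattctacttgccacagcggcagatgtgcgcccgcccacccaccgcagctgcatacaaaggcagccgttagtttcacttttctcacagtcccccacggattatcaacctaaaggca
his-8/his-7: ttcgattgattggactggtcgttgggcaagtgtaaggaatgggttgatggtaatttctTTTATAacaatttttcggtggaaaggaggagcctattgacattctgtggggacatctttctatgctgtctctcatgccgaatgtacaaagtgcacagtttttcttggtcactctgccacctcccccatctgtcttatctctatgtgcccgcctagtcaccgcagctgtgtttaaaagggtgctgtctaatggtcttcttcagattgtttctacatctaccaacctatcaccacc

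Histone genes are nearly identical to each other, which bears on where reads can be placed. Genes of the same type and length were alike in a median of 92.2% of bases for H2A, 93.2% for H2B, 92.0% for H3 and 90.1% for H4, and 35 genes had an exact copy elsewhere. A stretch of 50 bases was counted as unique if it occurs once in the genome on either strand, and the share of unique stretches was taken over each gene and the 1000 bp upstream. The median of this share was 24.2% for histone genes and 100% for all protein-coding genes. It was 92.9% for the 12 histone genes with a main-list peak, 65.1% for the 33 with a ranked-list peak only and 0% for the 27 with none.

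Of the 28 histone genes whose share was under 10%, 4 had a ranked-list peak, or 14.3%. Of 188 other protein-coding genes with a share under 10%, 37 had one, or 19.7%. Of the 16 histone genes with a share of 90% or more, 14 had one, or 87.5%, against 88.3% of the other genes. Among genes with a share of 50% or more, 10 of 32 histone genes had a main-list peak, or 31.2%, and 5.67% of the other genes did. Of the 35 genes with an exact copy, 10 had a ranked-list peak and 2 had a main-list peak, his-66 and his-65. Of the 37 without, 35 had a ranked-list peak and 10 a main-list peak. The part that unique sequence has in which genes show a peak was not tested.

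The 2 clusters without a ranked-list peak are his-29 to his-34 on IV and his-50 to his-53 on V. The stretch from his-50 to his-53 (V, 8847393 to 8854053) and that from his-28 to his-19 (V, 8889488 to 8896148) are both 6661 bp long with 0 differences, so a read lying wholly within one cannot be told from a read in the other, and none of the 12 genes in them had a ranked-list peak. The exception among the genes without a peak was the pair his-31/his-32, with shares of 93.0% and 93.5% and a highest value of 19.5 in the own ranked list of replicate 1 alone. The main-list peaks themselves were 71.9 to 100% unique, with a median of 97.3%, the lowest being that of his-66. Their GC content was 35.6 to 52.6%, with a median of 46.5%, and the median over the main list was 44.4%.

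To show how close the copies are, 100 bases of H3 coding sequence centred on the summit in his-59 are given with the same positions of 3 other H3 genes, chosen after their values were seen. These are his-32, and his-9 and his-49, which have exact copies elsewhere, and none of the 3 had a ranked-list peak. Capitals mark bases that differ from his-59, 7 in each gene. The positions are chrIV:7488448-7488547 for his-59, chrIV:8334504-8334603 for his-32, chrII:13823847-13823946 for his-9 and chrV:8848142-8848241 for his-49, all on the plus strand.
his-59: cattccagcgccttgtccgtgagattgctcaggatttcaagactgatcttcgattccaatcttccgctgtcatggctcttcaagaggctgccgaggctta
his-32: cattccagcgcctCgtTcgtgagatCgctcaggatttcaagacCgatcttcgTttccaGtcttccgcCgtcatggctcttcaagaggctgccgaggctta
his-9: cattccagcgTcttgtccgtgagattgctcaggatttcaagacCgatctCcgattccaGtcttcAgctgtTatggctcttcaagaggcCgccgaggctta
his-49: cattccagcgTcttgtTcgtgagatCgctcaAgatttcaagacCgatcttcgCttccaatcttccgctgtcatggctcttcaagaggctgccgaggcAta

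**Figure D3:**
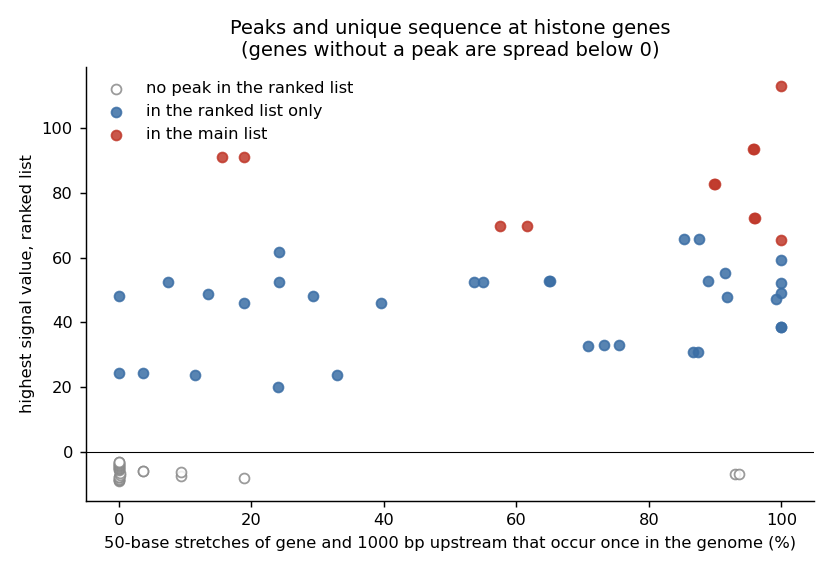
Highest signal value in the ranked list against the share of 50-base stretches of each histone gene and its upstream 1000 bp that occur once in the genome. Open circles below 0 are the 27 genes without a peak, most of them at or near 0%, with his-31 and his-32 at the right.

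In the own ranked list of replicate 1, 41 histone genes had a peak, or 56.9%, where 78.5% of all protein-coding genes had one. In that of replicate 2, 39 histone genes had one, or 54.2%, where 83% of all protein-coding genes did. Both shares lay below those of all genes, with 37 histone genes in both lists and 29 in neither. Across these 37 genes, which share peaks and are not independent, Spearman's rho of the highest signal values was 0.67, and across 14245 other genes it was 0.41. The 5 highest genes in replicate 1 were his-37 with 58.5, his-60 and his-59 with 43.5, and his-62 and his-61 with 42.1. In replicate 2 they were his-37 with 52.1, his-59 and his-60 with 51.6, and his-65 and his-66 with 49.7. The order thus began with the same 3 genes in both replicates and then differed, his-65 and his-66 having 37.2 in replicate 1.

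**Figure D4:**
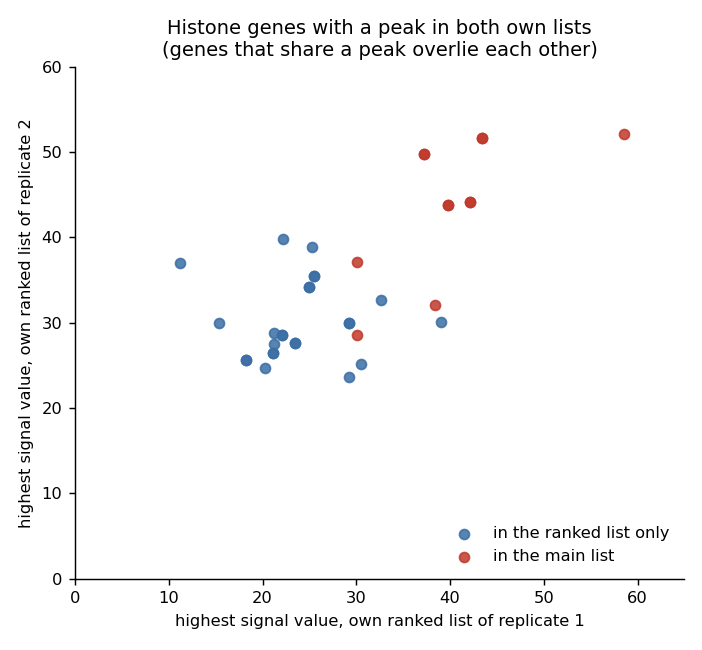
Highest signal value of the 37 histone genes with a peak in both own ranked lists, replicate 1 on the horizontal axis and replicate 2 on the vertical axis, with red points for genes with a main-list peak. His-37 lies farthest out with 58.5 and 52.1, and several points stand for both genes of a pair.

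As C/EBP sequences, 8 sequences (TTGCGCAA, TTGCGTAA, TTGCACAA, TTGCATAA, TTACGCAA, TTACGTAA, TTACACAA and TTACATAA) were sought on both strands within 50 bp of each summit. None of the 8 main-list summits and none of the 74 ranked summits at histone genes held one, where 25 of all 1419 main-list summits did, or 1.76%. In promoters, taken as 250 bp before to 50 bp after the 5' end, 5 of 72 histone genes held one (6.94%), his-48, his-58, his-57, his-66 and his-39, against 8.21% of all protein-coding genes. The E-box CACGTG was found in the promoter of his-72 alone among the histone genes, or 1.39% against 5.81%. The sequence TATAAA was found in 65.3% of histone promoters, in 38% of all promoters and in the promoters of 4 of the 12 genes with a main-list peak. It was found in 24 of the 31 spaces between pairs, which are not all of the length of the promoter window. Identical copies were counted separately, such as those from his-50 to his-53 and from his-28 to his-19. The shares for histone genes are therefore not of independent sequences. A match says that these letters occur in the window, and no match says only that they do not.

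A perfect stem-loop with a stem of 6 bases and a loop of 4 within 100 bases past the stop codon was found at 56 of 72 histone genes, or 77.8%, and at 7.23% of other protein-coding genes. It began 32 to 58 bases past the stop codon in the histone genes, with a median of 43. The same 16 bases made up the stem-loop at 52 of these genes. None was found at 16 histone genes. They included the 8 genes with introns, his-37, his-24, his-35, his-41, his-57, his-71, his-72 and his-74. The remaining ones were the H3.3 genes his-69 and his-70, the short genes his-39 and his-73, and the intronless H2A genes his-19, his-47, his-53 and his-68. Of these H2A genes his-68 had a main-list peak, through the upstream window alone. A main-list peak lay at 9 of the 56 genes with a stem-loop, or 16.1%, and at 3 of the 16 without, or 18.8%, beside 5.62% of all protein-coding genes. Of the 8 main-list peaks, 4 covered a stem-loop. The summit lay 13 bp from that of his-60, 34 bp from that of his-66, 46 bp from that of his-64 and 60 bp from that of his-67. Stem-loops under the other ranked peaks at histone genes were not counted, so no link between peaks and stem-loops is read from this.

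Among 25 other genes for histones and their supply, namely further H1 genes, variants, chaperones and the stem-loop binding protein, 3 had a main-list peak. These were lin-53, a histone-binding WD40 protein of several chromatin complexes, with a signal value of 108.7 (52.5 and 54.9 in replicates 1 and 2), htz-1, the H2A.Z variant, with 90.8 (31.3 and 68.8), and nap-1, a nucleosome assembly protein, with 88.9 (57.4 and 40.7). The share was 12%, from 3 genes, beside 5.62% of all genes. A ranked-list peak lay at 22 of the 25, or 88%, close to the 87.4% of all protein-coding genes. None lay at xnp-1, hil-5 or chaf-1, each of which had a peak in the own ranked list of 1 replicate only. The stem-loop binding protein gene cdl-1 had a highest value of 41.8, near the median of 40.4 over all protein-coding genes with a peak, with 25.8 in replicate 1 and no peak in replicate 2.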

How the data were processed

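Peak lists of CEBP-2 ChIP-seq were used as deposited, in the ce11 coordinates named in the labels. The labels give sonication of the chromatin. The sources used here name neither the aligner nor the peak caller. The thresholded lists were made, per the file headers, with an additional unnamed file. Each deposited peak has a signal value from the authors' caller, of unstated normalization, and a score, which rises with reproducibility to a ceiling of 1000. The −log10 global IDR in the ranked lists is the authors' value. In the ranked lists of both replicates 16 further columns, which no header names, were not used.

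Genes were taken from Ensembl release 115 of WBcel235, the same assembly as ce11, and names from RefSeq by gene identifier, and sequences from the RefSeq genome. Unique stretches, motifs, stem-loops and overlaps were computed with Python 3.11.15, numpy 2.4.6 and pandas 2.3.3, and intervals with scipy 1.17.1. The assignment of peaks, clusters, pairs and unique stretches was tested on simulated data. No test between groups was possible, and list values are counts and medians beside those of all genes. The genes and lists were chosen with earlier results of these data known. The named genes were every histone gene with a main-list peak, the highest gene of each cluster, the 5 highest of each replicate, and listed supply genes with a main-list peak, with genes lacking a ranked-list peak given as a count. Alternatives were the other lists, each replicate alone, other windows, a stricter score and other stretch lengths. Intervals cover the counting of genes only.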

Additional observations from a re-analysis of the deposited data

How the results depend on the processing

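Over the alternative lists, windows and stretch lengths, 36 of 46 values stayed within the limits set for them and 10 did not. For counts and unique stretches the limit was 1.5 times either way, and 8 genes against 12, at that limit, counted as within. For the share in coding sequence it was the exact 95% interval, 8.52 to 75.5%. For the median signal value it was 4.64, the standard deviation of the medians of the 2 own ranked lists. With each replicate's own lists, 2 to 3 histone genes had a peak in the thresholded list in place of 12, in 1 to 2 clusters in place of 5 and 1 pair in place of 5, and the share of summits in histone coding sequence was 50 to 100% in place of 37.5%, from 1 or 2 summits. The median highest signal value was 25.5 to 32.1 in the own ranked lists in place of 52.4, on lists with no stated common scale, and 47.1 when only peaks that overlap the gene were counted. The count of 12 genes was 8 with a window of 500 bp or none, and 9 in the conservative list or with the top score alone. The causes were not tested. Depth is unknown, and near-identical copies limit what can be placed at 28 genes with under 10% unique sequence. No paired analysis was possible because the 2 replicates belong to 1 group and no groups are compared.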
